A study of Mus musculus with 10 samples.

Results

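*Ccl17*, *Ccl22* and *Ccl1* encode secreted chemokines, and *Ccr4* and *Ccr8* encode the receptors they bind. These 5 genes were taken by name from the 770 endogenous and reference probes of a NanoString immune panel for mouse, as the ligands of CCR4, a ligand of CCR8, and both receptors. The panel was measured in 10 tumors of YUMMER1.7, a mouse melanoma line with mutant *Braf*, whose added somatic mutations make it more immunogenic than its parent YUMM1.7. The cells were injected under the skin of male C57BL/6 mice, 5 of them wild type (WT) and 5 lacking *Siah2*, a ubiquitin ligase gene, throughout the body (Siah2 KO), while the injected cells themselves carried *Siah2* in both groups. Tumors were taken on day 11 by the labels and on day 10 by the legend of the study's figure. The mice were 5 to 7 weeks old by the legend and 6 to 10 weeks old by the study's reporting summary. WT tumors carry the replicate numbers 2 to 6 and Siah2 KO tumors the numbers 1, 2, 3, 5 and 6. The panel has no probe for *Siah2*, so the genotype could not be checked in the RNA. GEO's design text for the series names another YUMM line and mice lacking *Rnf5*, and the sample labels and the paper's description were followed here. Each tumor is a mix of injected melanoma cells and cells of the host, in which fewer cells of a type and less RNA per cell cannot be told apart.

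CCL17 and CCL22 are made mainly by dendritic cells and macrophages, and IL-4 and IL-13, acting through STAT6, are the best known inducers of both. Their shared receptor CCR4 is carried by Th2 cells, skin-homing T cells and many regulatory T cells (Tregs), and the pair is best known in tumors and skin for drawing such cells in. CCL1 is made by activated T cells, mast cells and macrophages and binds CCR8, which is found on Tregs of tumors and of skin and on Th2 cells. The comparison addresses whether loss of *Siah2* in the host goes with other levels of these signals and of the receptors that read them.

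*Ccl22* and *Ccl17* are neighbors on mouse chromosome 8, with *Cx3cl1*, a chemokine of another family, between them. On GRCm38.p6, *Ccl22* spans chr8:94745684-94751388, *Cx3cl1* chr8:94772180-94782427 and *Ccl17* chr8:94809380-94812038, and the starts of *Ccl22* and *Ccl17* are 63.7 kb apart. *Ccl1* lies at chr11:82176666-82179812. *Ccr4*, at chr9:114490316-114505476, and *Ccr8*, at chr9:120092133-120094906, are 5601.8 kb apart. The 250 bases before the transcript start were read from the RefSeq promoters of GRCm38.p6 for the 3 ligands, since their RNAs were lower together in Siah2 KO tumors. The window of *Ccl17* (chr8:94810203-94810452, plus strand) lies inside the annotated gene, because RefSeq also gives a start farther upstream. The window of *Ccl22* is chr8:94745434-94745683 on the plus strand, and that of *Ccl1* is chr11:82179813-82180062 on the minus strand. Each is given 5′ to 3′ on the strand of its gene. Capitals mark matches on either strand to TTCNNNNGAA (the spacing bound by STAT6), to TTCNNNGAA (the spacing of other STAT factors) and to GGGNNNNNCC (a loose NF-kB pattern).
Ccl17: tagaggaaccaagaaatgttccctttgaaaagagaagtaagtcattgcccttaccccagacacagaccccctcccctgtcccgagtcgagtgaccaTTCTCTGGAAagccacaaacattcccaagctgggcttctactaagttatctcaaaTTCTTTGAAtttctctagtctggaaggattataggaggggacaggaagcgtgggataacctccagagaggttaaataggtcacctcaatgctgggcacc
Ccl22: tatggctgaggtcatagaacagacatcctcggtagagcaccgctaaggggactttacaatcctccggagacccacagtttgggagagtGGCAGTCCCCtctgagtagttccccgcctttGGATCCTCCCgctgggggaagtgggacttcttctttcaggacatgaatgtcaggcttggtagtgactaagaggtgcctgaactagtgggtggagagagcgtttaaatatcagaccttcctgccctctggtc
Ccl1: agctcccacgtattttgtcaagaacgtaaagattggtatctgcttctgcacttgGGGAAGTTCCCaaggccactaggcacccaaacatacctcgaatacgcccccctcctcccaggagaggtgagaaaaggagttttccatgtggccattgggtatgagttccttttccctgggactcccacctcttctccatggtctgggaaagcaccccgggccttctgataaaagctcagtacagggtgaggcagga
The *Ccl17* window held 1 match to the STAT6 spacing, 154 to 145 bases before the start, and 1 to the other STAT spacing, 99 to 91 bases before it. Of 32851 RefSeq windows of the same length, 5.85% held the first pattern and 7.02% the second. The *Ccl22* window held 2 matches to the NF-kB pattern, both on the minus strand, and the *Ccl1* window held 2 overlapping matches on opposite strands. The NF-kB pattern was in 45.8% of all windows. The windows of *Ccl22* and *Ccl1* held neither STAT pattern. Of the receptor windows, that of *Ccr4*, whose RNA was also called lower, held 0 matches to any of the patterns. That of *Ccr8*, whose RNA was not called, held 2 overlapping matches to the NF-kB pattern on opposite strands. These are matches of letters only.

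Values are normalized counts, that is, reads of a probe's barcode after background subtraction, scaled in each tumor to 20 reference genes. The counts before scaling summed to between 382884 and 581619 per tumor. The factor that scales a tumor ran from 0.918 to 1.32 in WT and from 1.03 to 1.60 in Siah2 KO. The brightest of 8 negative control probes, put on the same scale, reached 2.31 to 8.92 in WT and 4.11 to 15.8 in Siah2 KO, and values no higher than this were read as not above background. Genes were called at an adjusted p under 0.05 in limma. Over the panel, 75 of 770 probes (9.74%) were called lower and 241 (31.3%) higher in Siah2 KO tumors, with a median log2 difference of 0.24. With tumors scaled to a common median of the endogenous probes, which shifted that median by −0.25, 152 were lower and 163 higher. Nothing in the labels ties a tumor to a cage, litter or run, and p-values measure the spread between these tumors only. Of the melanoma list, *Cspg4* was at 350 ± 52.2 in WT and 198 ± 62.3 in Siah2 KO normalized counts (SD, n = 5 each). *Mcam* was at 135 ± 11.9 and 121 ± 24.9, whereas *S100b* was at 1.72 ± 0.559 in Siah2 KO tumors, near the floor. Which cells of the tumor made these RNAs was not tested. Of the 5 genes of the CCR4 and CCR8 axis, 4 were called lower and 0 higher, and in 2 of them every Siah2 KO tumor lay below every WT tumor, which held for 7.01% of the panel.

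*Ccl17* had the largest fall of all 770 probes. In WT tumors 2, 3, 4, 5 and 6 it was at 46.3, 90.0, 171, 53.8 and 43.3 normalized counts. The values in Siah2 KO tumors 1, 2, 3, 5 and 6 were 1.11, 4.12, 22.7, 20.3 and 1.03. Every Siah2 KO tumor lay below every WT tumor, 2 of them at the floor of the file and a further tumor, replicate 2, level with its brightest negative control. The group means were 80.9 ± 53.7 in WT and 9.85 ± 10.7 in Siah2 KO (SD, n = 5 each). On the log2(value + 1) scale the difference was −3.46, with a standard error (SE) of 0.77 and a 95% confidence interval from −5.17 to −1.75 (adjusted p = 0.0051 in limma, two-sided exact permutation p = 0.0079, the smallest that 5 against 5 tumors allow). This is 11.0-fold between geometric means of value + 1, and the size rests on the lowest values: it was −1.72 with values under 20 raised to 20 and −2.20 with a pseudocount of 10, with adjusted p of 0.0055 and 0.0021. Before scaling, the counts were 40.8 to 186 in WT and 1 to 18.0 in Siah2 KO tumors.

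*Ccl22* was measured well above background in every tumor. In WT tumors 2, 3, 4, 5 and 6 it was at 140, 218, 223, 161 and 128 normalized counts. The Siah2 KO tumors 1, 2, 3, 5 and 6 had 47.5, 68.1, 98.5, 106 and 33.5. Again no tumor of either group reached the other's range, and the closest were Siah2 KO replicate 5 and WT replicate 6. Means were 174 ± 44.0 in WT and 70.7 ± 31.4 in Siah2 KO (SD, n = 5 each), a log2 difference of −1.37 (SE 0.32, 95% confidence interval −2.08 to −0.67, adjusted p = 0.0063, exact permutation p = 0.0079), or 2.59-fold. The fall was the 13th largest of the panel. Before scaling, *Ccl22* counts were 122 to 243 in WT and 32.5 to 78.0 in Siah2 KO tumors, so the groups did not overlap without the factor either. Counting alone gives each of these values an error of at least 6.41% to 17.5%.

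**Figure D1:**
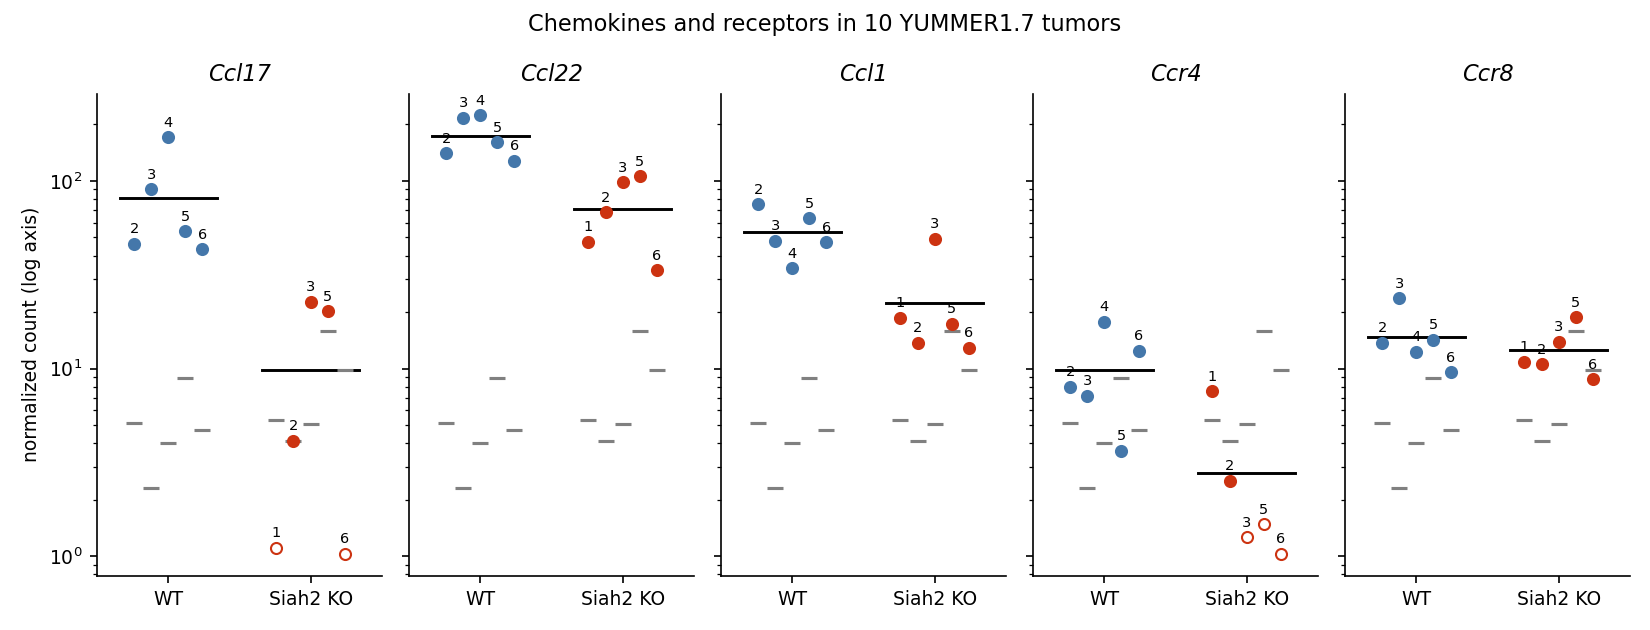
Normalized counts (log axis) of the 5 genes in each tumor, WT in blue and Siah2 KO in red, numbered by replicate. Black lines are group means, open circles are values at the floor of the file, and gray dashes give that tumor's brightest negative control probe. *Ccl17* and *Ccl22* separate the groups, *Ccl1* does except for Siah2 KO replicate 3, *Ccr4* is near background, and *Ccr8* overlaps.

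*Ccl17* fell further than *Ccl22*. Their log2 ratio within a tumor, *Ccl17* over *Ccl22*, ran from −1.58 to −0.38 in WT and from −4.52 to −2.07 in Siah2 KO, with no overlap. The mean ratio was lower by −2.09 in Siah2 KO (SE 0.40, 95% confidence interval −2.88 to −1.29, adjusted p = 6.1e-06 in limma, exact permutation p = 0.0079). The SD of the ratio was 0.51 in WT and 1.09 in Siah2 KO tumors. Limma's SE, interval and adjusted p may be too small here, since *Ccl22* was taken off every probe. By the equal-variance test of the study's methods the adjusted p was 0.0072. That difference was not found when values under 20 were raised to 20 (−0.34, adjusted p = 0.32), since 3 Siah2 KO tumors have *Ccl17* under 5 normalized counts, and it was −0.95 with a pseudocount of 10 (adjusted p = 0.0030). Within each genotype the 2 ligands moved together. The 5 WT tumors fell in the same order for both, highest in replicate 4, then 3, 5, 2 and 6. In Siah2 KO tumors replicates 3 and 5 were highest for both and replicate 2 came next, while replicates 1 and 6 were lowest, with *Ccl17* at the floor in each and so without an order. After each group's mean was subtracted, Pearson's r between the 2 genes was 0.95 over the 10 tumors. *Cx3cl1*, between them on the chromosome, was at 96.5 ± 13.3 in WT and 82.8 ± 20.7 in Siah2 KO (log2 difference −0.24, adjusted p = 0.29). It was called lower with median scaling (−0.51, adjusted p = 0.013) and with quantile normalization (−0.56, adjusted p = 0.0045).

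*Ccl1* was also lower in Siah2 KO tumors. The WT tumors 2, 3, 4, 5 and 6 had 75.1, 48.1, 34.3, 63.1 and 47.1 normalized counts. The Siah2 KO tumors 1, 2, 3, 5 and 6 had 18.7, 13.7, 49.2, 17.3 and 12.9. Of the 5 Siah2 KO tumors 4 lay below the lowest WT tumor, and replicate 3 lay among the WT tumors, above 3 of the 5. Every value was above its tumor's brightest negative control. The margin was small in Siah2 KO replicates 5 and 6, at 17.3 beside 15.8 and 12.9 beside 9.83. Before scaling, *Ccl1* counts ran from 8.57 to 78.4 over all tumors. Means were 53.5 ± 15.8 in WT and 22.4 ± 15.2 in Siah2 KO (SD, n = 5 each). The log2 difference was −1.36 (SE 0.35, 95% confidence interval −2.14 to −0.58, adjusted p = 0.011, exact permutation p = 0.032), the 14th largest fall of the panel and 2.56-fold. It was −1.08 with values under 20 raised to 20 (adjusted p = 0.022) and −1.04 with a pseudocount of 10 (adjusted p = 0.0096). Leaving out Siah2 KO replicate 3 gave −1.68 (adjusted p = 0.0010). In the 8 tumors whose numbers occur in both groups it was −1.48. There it was not called with the replicate number as a block (adjusted p = 0.051) and was called without the block (adjusted p = 0.026). *Ccl1* did not share the order of the other 2 ligands: WT replicate 4, the highest for *Ccl17* and *Ccl22*, was the lowest for *Ccl1*. After subtraction of group means its r was 0.34 with *Ccl17* and 0.29 with *Ccl22* over 10 tumors.

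*Ccr4*, the receptor of CCL17 and CCL22, was close to background. In WT tumors 2, 3, 4, 5 and 6 it was at 8.01, 7.18, 17.8, 3.65 and 12.4 normalized counts, above the brightest negative control in 4 of 5. In Siah2 KO tumors 1, 2, 3, 5 and 6 it was at 7.55, 2.52, 1.26, 1.48 and 1.03, above it in 1 of 5 and at the floor in 3. Among Siah2 KO tumors, replicate 1 alone lay inside the WT range. The means of 9.81 ± 5.44 and 2.77 ± 2.73 (SD, n = 5 each) gave a log2 difference of −1.60 (SE 0.46, 95% confidence interval −2.62 to −0.57, adjusted p = 0.019, exact permutation p = 0.024). Since most Siah2 KO values carry no count above background, the size of the fall is poorly fixed, and it was −0.61 with a pseudocount of 10 (adjusted p = 0.027).

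*Ccr8*, the receptor of CCL1, did not differ detectably. WT tumors 2, 3, 4, 5 and 6 had 13.8, 23.7, 12.3, 14.2 and 9.54 normalized counts, and Siah2 KO tumors 1, 2, 3, 5 and 6 had 10.9, 10.5, 13.9, 18.8 and 8.80. The groups overlapped over most of their range, and 9 of the 10 values were above the brightest negative control. With means of 14.7 ± 5.37 and 12.6 ± 3.93 (SD, n = 5 each), the log2 difference was −0.20 (SE 0.25, adjusted p = 0.55, exact permutation p = 0.48). Its 95% confidence interval, from −0.75 to 0.36, does not hold a fall of the size seen for *Ccl22* or *Ccl1*. The counts before scaling were 6.57 to 24.4, where counting alone gives an error of at least 20.3% to 39.0% per tumor, and smaller differences were not detectable at this depth.

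**Figure D2:**
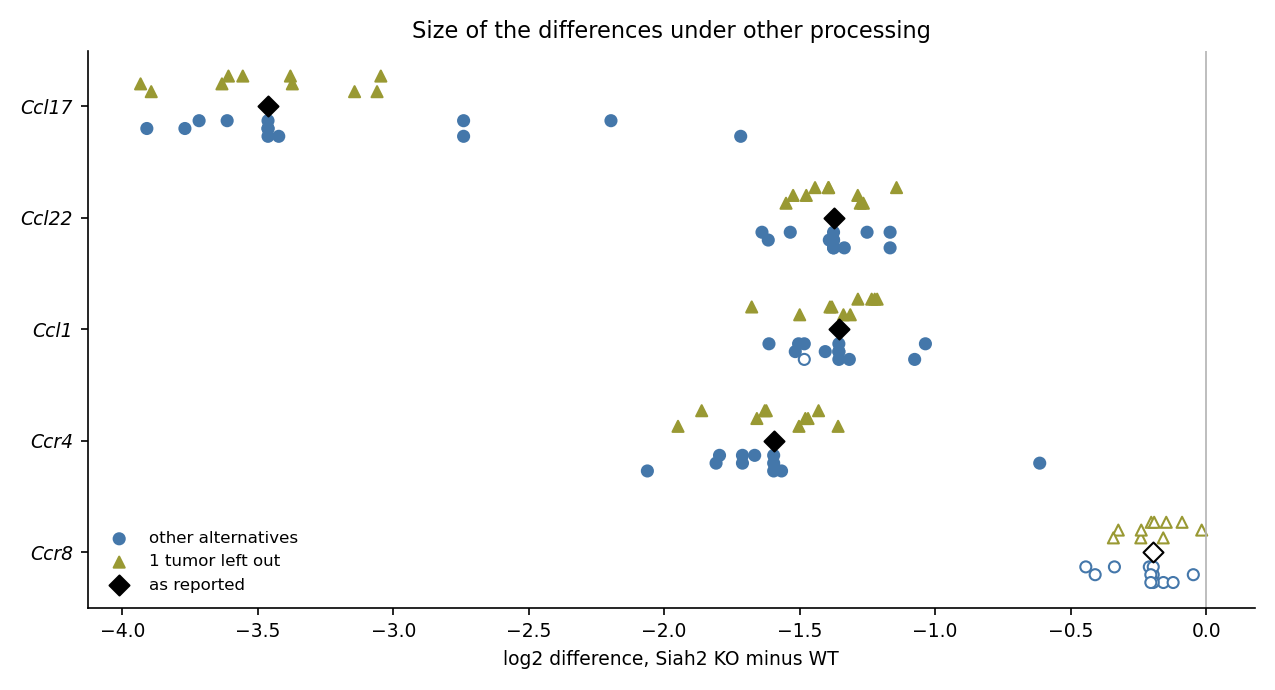
Log2 difference, Siah2 KO minus WT, of each gene as reported (diamond), under the other alternatives for scaling, filters, pseudocount, test and pairing (circles) and with each tumor left out in turn (triangles). Filled symbols have an adjusted p under 0.05, and points are spread vertically only to keep them apart. No gene changes direction. *Ccl17* ranges from −3.93 to −1.72, and *Ccr8* is never called.

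The ligands were next set against gene lists for dendritic cells, a main source of them. A dendritic cell lineage list (*Itgax*, *Flt3*, *Xcr1*, *Cd207*, *Irf8*, *Btla* and *Ciita*) had 2 of 7 genes higher and 0 lower in Siah2 KO tumors, with a median log2 difference of 0.21 beside 0.24 for all probes. *Itgax*, which encodes CD11c, went from 73.3 ± 17.7 to 132 ± 20.4 (log2 difference 0.86, adjusted p = 0.0038), and *Irf8*, a transcription factor that dendritic cells need, from 545 ± 48.9 to 893 ± 137 (0.70, adjusted p = 0.0015). *Flt3*, the growth factor receptor of dendritic cells, had 25.8 ± 6.12 and 18.1 ± 6.71 (−0.53, adjusted p = 0.13), and was called lower with median scaling (−0.79, adjusted p = 0.034) and with quantile normalization. The summed level of the list was 691 to 809 normalized counts in WT and 954 to 1325 in Siah2 KO tumors, with *Irf8* as its largest part. Of the 7 genes 3 had a mean under 20. With median scaling or quantile normalization, 2 were higher and 2 lower. A list of maturation genes of dendritic cells had 3 of 10 higher and 1 lower (median 0.29), but 2 higher and 3 lower with median scaling or quantile normalization. As first fitted, the shares of both lists were near the 31.3% higher and 9.74% lower of the panel. *Cd274*, which encodes PD-L1, rose most, from 471 ± 81.8 to 2047 ± 811 (2.05, adjusted p = 0.00039). The costimulatory genes *Cd86* (0.75, adjusted p = 0.0042) and *Cd80* (0.43, adjusted p = 0.0042) were higher too. *Il12b*, a subunit of IL-12 and IL-23, fell from 46.1 ± 4.59 to 26.6 ± 12.7 (−0.86, adjusted p = 0.017). The summed level of the list was 1971 to 2323 in WT and 2851 to 5847 in Siah2 KO tumors. *Cd274* was the largest part of the sum in Siah2 KO tumors, so the sum mostly follows that gene. With positive control scaling 0 of the 7 lineage genes and only *Cd274* of the maturation genes were called higher, and *Il12b* was not called (adjusted p = 0.054).

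Relative to either list the 2 ligands were lower as well, a descriptive ratio and not a count of cells. Here the list's median on the log2 scale was taken off the gene's value, tumor by tumor. The part of dendritic cell numbers in the fall of the ligands was not tested, nor whether other cells made the RNAs of the lists. Beside the list genes called higher, *Btla* (−0.97, adjusted p = 0.11, mean under 20) and *Ccr7* (−0.65, adjusted p = 0.12) were lower without a call. *Ccl17* relative to the maturation list was at −2.11 to −0.30 in WT and −6.61 to −3.64 in Siah2 KO tumors, lower by −3.63 (SE 0.61, adjusted p = 0.00095, exact permutation p = 0.0079). *Ccl22* relative to that list was at −0.56 to 0.082 in WT and −2.52 to −1.41 in Siah2 KO tumors, lower by −1.54 (SE 0.22, adjusted p = 0.00044, exact permutation p = 0.0079). For both, no tumor of either group reached the other's range, and the methods' test gave adjusted p of 0.0085 and 0.0029. The share of all probes without overlap was not computed for any ratio. Relative to the lineage list, *Ccl17* was lower by −3.04 without overlap (SE 0.54, exact permutation p = 0.0079). Its adjusted p was 0.00011 in limma and 0.030 by the methods' test. *Ccl22* relative to the lineage list was lower by −0.95 (SE 0.34, adjusted p = 0.025, exact permutation p = 0.032), with Siah2 KO replicate 3 inside the WT range. That call was lost without WT replicate 4, Siah2 KO replicate 1 or Siah2 KO replicate 6 (adjusted p of 0.056, 0.068 and 0.082), by the methods' test (adjusted p = 0.070), and in the 8 tumors whose numbers occur in both groups (−0.71, adjusted p = 0.12). It was −1.91 when genes with a mean under 20 were left out (adjusted p = 8.6e-05) and −1.54 with the mean of the list in place of the median (adjusted p = 0.00063). The lineage list is small, and the per-tumor median was lower by −0.42 in Siah2 KO tumors although the median and mean of its genes' own differences were 0.21 and 0.16.

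**Figure D3:**
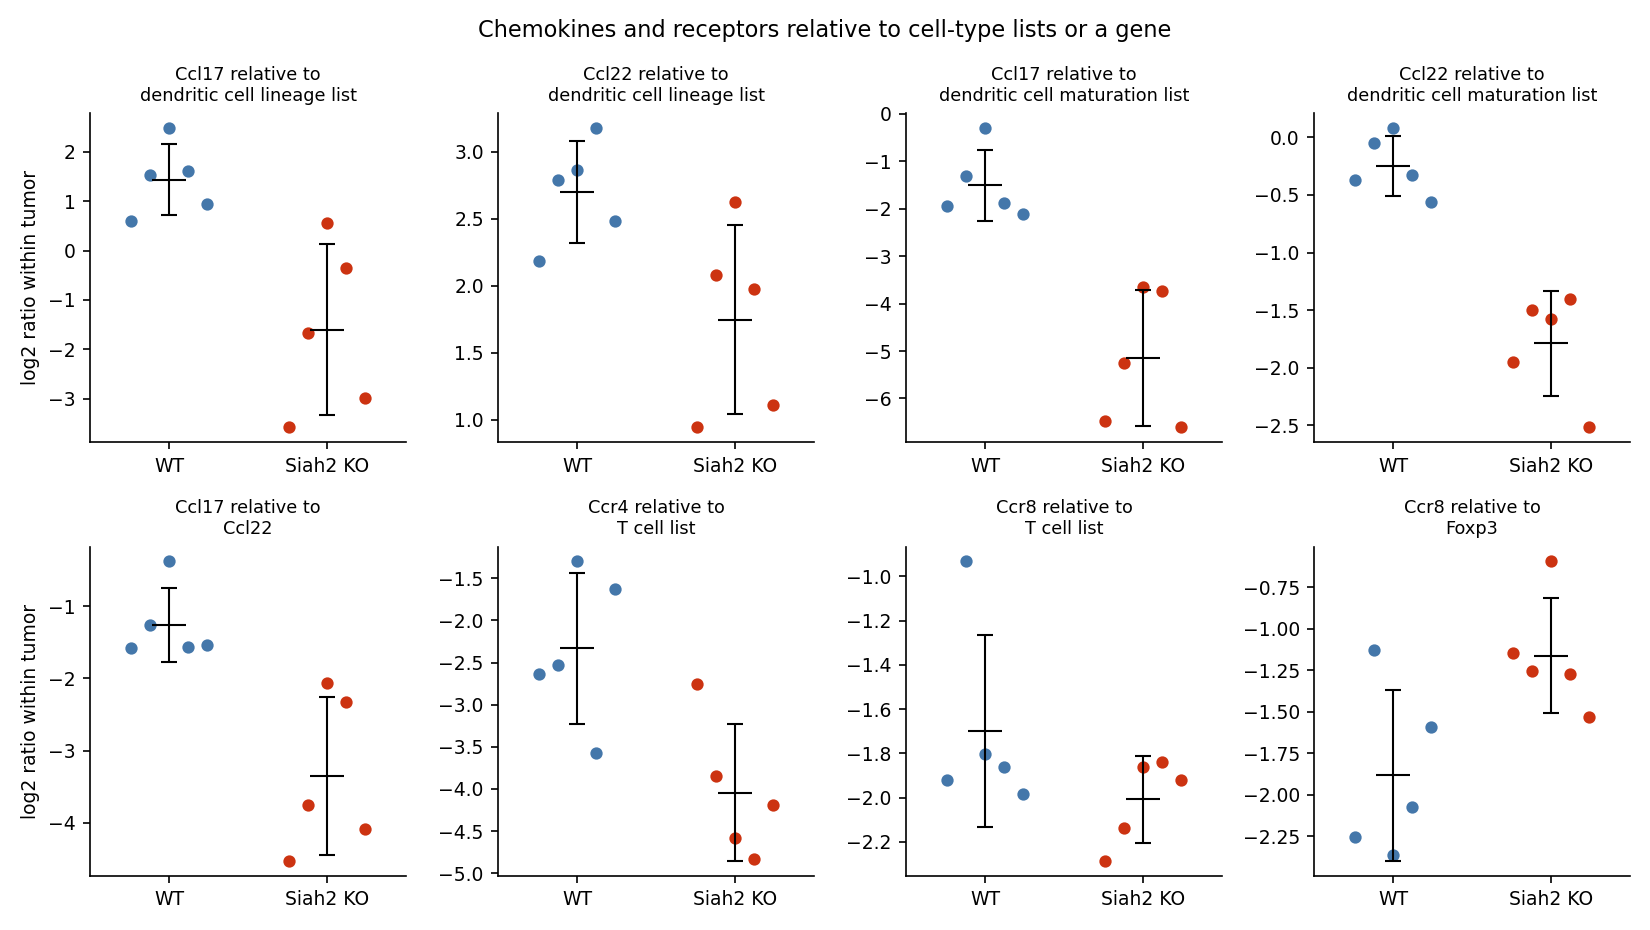
Log2 ratio within each tumor of a chemokine or receptor to the median of a gene list, to *Ccl22* or to *Foxp3*, in WT (blue) and Siah2 KO (red) tumors, with the mean and SD of 5 tumors in black. The axes differ between panels and do not start at 0. *Ccl17* is lower without overlap in all 3 of its panels, while *Ccr8* relative to the T cell list overlaps.

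Macrophages are the other source of CCL17 and CCL22. Of 8 macrophage genes Siah2 KO tumors had 3 higher and 2 lower (median log2 difference 0.13, summed level 6739 to 8398 in WT and 6672 to 10681 in Siah2 KO). Over the panel 31.3% were higher and 9.74% lower. The scavenger receptor gene *Msr1* rose from 843 ± 114 to 1609 ± 344 (0.92, adjusted p = 0.0015), with *Cd68* and *Marco*. The hemoglobin scavenger receptor gene *Cd163* fell from 133 ± 53.0 to 34.3 ± 7.62 (−1.86, adjusted p = 0.00082), and the mannose receptor gene *Mrc1* fell (−0.89, adjusted p = 0.017). *Cd163* and *Mrc1* are known as genes that IL-10 or IL-4 raise in macrophages. With positive control scaling none of the 3 was called higher. The part of any of these cells in the fall of the ligands was not tested.

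Among RNAs of the cytokine route that induces CCL17 and CCL22 no gene was called lower as first fitted, beside 9.74% of the panel. Of 11 genes of the IL-4, IL-13 and GM-CSF pathways 2 were higher and 0 lower, with a median log2 difference of 0.18, and 0 were lower at an unadjusted p under 0.05 as well, by limma or by the methods' test. *Il2rg*, the common chain of the IL-4 and other cytokine receptors, went from 198 ± 26.5 to 335 ± 91.5 (0.73, adjusted p = 0.0079). *Il13ra1*, a chain of the IL-13 receptor, rose by 0.59 (adjusted p = 0.0049). *Il4ra*, the chain that both cytokines need, was at 699 ± 87.1 in WT and 702 ± 115 in Siah2 KO (difference −0.00070, 95% confidence interval −0.31 to 0.31, adjusted p = 0.999). *Stat6* was at 956 ± 27.6 and 1083 ± 38.6 (0.18, adjusted p = 0.059). With quantile normalization, which shifted the median of all probes by −0.28, 3 of the 11 were called lower, *Stat6*, *Il4ra* and *Jak1*. The RNA of *Il4* itself was at 5.89 ± 3.83 and 3.03 ± 2.35 normalized counts (log2 difference −0.78, adjusted p = 0.22). That of *Il13* was at 4.63 ± 2.72 and 8.32 ± 5.88 (0.59, adjusted p = 0.36). Both were no higher than the brightest negative controls of some tumors. Signaling through the route was not measured, and its part in the fall of the ligands was not tested.

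On the side of the responding cells, T cell genes were mostly higher. Of 14 genes in Siah2 KO tumors, 8 rose and 0 fell (median log2 difference 0.71, summed level 741 to 987 in WT and 987 to 1751 in Siah2 KO). *Cd8b1*, of the cytotoxic T cell coreceptor, rose from 10.2 ± 5.52 to 34.1 ± 8.14 (1.76, adjusted p = 0.0022). *Cd4*, of the helper T cell and Treg coreceptor, was at 67.6 ± 11.7 and 55.5 ± 10.6 (−0.29, adjusted p = 0.19), and was called lower with median scaling (−0.55, adjusted p = 0.0054). With median scaling 6 of the 14 were higher and 2 lower, with quantile normalization 5 and 2, and with positive control scaling 1 was called higher. *Ccr4* relative to the T cell list was at −3.57 to −1.30 in WT and −4.83 to −2.76 in Siah2 KO tumors, lower by −1.71 (SE 0.45, adjusted p = 0.013, exact permutation p = 0.016), but not called by the methods' test (adjusted p = 0.052). *Ccr8* relative to the list was −1.98 to −0.93 in WT and −2.29 to −1.84 in Siah2 KO tumors. The difference was −0.31 (95% confidence interval −0.77 to 0.15, adjusted p = 0.33, exact permutation p = 0.19). With the mean of the list in place of the median it was −0.85 (adjusted p = 0.011). The median of the list was higher by only 0.11 in Siah2 KO tumors, whereas the mean of its genes' differences was 0.65, and this call depends on which is used.

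Treg genes moved both ways, in shares near the 31.3% higher and 9.74% lower of the panel. Of 9 genes 3 were higher and 1 lower (median log2 difference 0.076, summed level 719 to 1209 in WT and 842 to 1549 in Siah2 KO). The gene lower was *Foxp3*, the transcription factor that defines Tregs, at 56.7 ± 15.8 in WT and 29.5 ± 9.97 in Siah2 KO (−0.92, adjusted p = 0.018, exact permutation p = 0.016). *Tnfrsf9* (from 13.8 ± 5.93 to 29.6 ± 11.8, log2 difference 1.07, adjusted p = 0.034), *Tigit* (0.97, adjusted p = 0.0028) and *Icos* (0.77, adjusted p = 0.025) rose, and these are carried by other activated T cells as well. None of the 3 was called with positive control scaling, and 1 gene was higher without WT replicate 6 or Siah2 KO replicate 1, 3 or 5. Without Siah2 KO replicate 5, 2 were lower. With median scaling 1 was higher and 2 lower, and with quantile normalization 2 and 2. *Ccr8* was therefore set against *Foxp3*. Its log2 ratio to *Foxp3* was −2.36 to −1.13 in WT and −1.53 to −0.59 in Siah2 KO tumors, a difference of 0.72 (95% confidence interval −0.0023 to 1.44, adjusted p = 0.061, exact permutation p = 0.056) that did not pass the test. It passed with a floor of 20, a pseudocount of 10, the methods' test, or without WT replicate 3 or 6 (adjusted p from 0.0089 to 0.044), and did not with the 8 tumors whose numbers occur in both groups (0.60, adjusted p = 0.22).

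Th2 cells are the other carriers of both receptors. The 9 Th2 probes include 2 for the same gene. Of the 9, 1 was higher and 0 lower (median log2 difference 0.30), and 6 had a mean under 20. *Il1rl1*, the IL-33 receptor that mast cells, Tregs and type 2 lymphocytes carry, rose from 573 ± 105 to 1706 ± 597 (1.52, adjusted p = 0.0011). *Maf*, a transcription factor for IL-4, was at 212 ± 40.7 and 171 ± 23.7 (−0.30, adjusted p = 0.14) and was called lower with median scaling (−0.56, adjusted p = 0.0088). Without WT replicate 5 or Siah2 KO replicate 6, 2 of the 9 were higher. The summed level was 694 to 990 in WT and 1232 to 2798 in Siah2 KO tumors, with *Il1rl1* as its largest part in both groups. In a short list for skin homing and for processing of the ligands, 2 of 6 genes were higher and 0 lower (median 0.13). The share higher is near the 31.3% of the panel. *Sele*, E-selectin of the vessel wall, rose from 75.3 ± 7.18 to 129 ± 23.6 (0.75, adjusted p = 0.0022), and *Selplg*, which carries its ligand, rose by 0.51 (adjusted p = 0.023). Neither was called with median, quantile or positive control scaling, 2 of the 6 genes were called lower with median scaling or quantile normalization, and 1 of the 2 was called higher without WT replicate 2, 3 or 4. *Dpp4*, whose protease trims CCL22, was at 56.9 ± 11.6 and 43.9 ± 10.9 (−0.38, adjusted p = 0.14) and was called lower with median scaling (−0.64, adjusted p = 0.018) and quantile normalization.

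Among the CC chemokines of the panel, *Ccl17*, *Ccl22* and *Ccl1* were the 3 of 21 ligands called lower, beside 9.74% of the panel. Of the other 18, 6 were higher, a share near the 31.3% of the panel, and 0 lower (median log2 difference 0.054), and 0 were lower at an unadjusted p under 0.05 in limma and in the methods' test. *Ccl4*, a chemokine of inflammation, rose most, from 32.6 ± 7.96 to 152 ± 20.1 (2.20, adjusted p = 2.7e-05). *Ccl3* (2.02), *Ccl11* (1.72), *Ccl2* (1.53), *Ccl7* (1.43) and *Ccl5* (1.02) rose as well, of which *Ccl5* was not called with positive control scaling. *Ccl24*, an eosinophil chemokine, had the widest spread, with 113 ± 57.1 in WT and 125 ± 151 in Siah2 KO (−1.10, adjusted p = 0.50). *Ccl8*, another ligand of CCR8 in mice, differed by −0.030 (adjusted p = 0.94). *Ccl9* and *Ccl12* were called lower with median scaling (−0.42 and −0.56) and quantile normalization, and *Ccl12* also without WT replicate 2. Among the other CC receptors, *Ccrl2*, a receptor that binds chemerin, rose from 45.4 ± 13.3 to 108 ± 49.1 (1.17, adjusted p = 0.010). *Ccr3*, the eotaxin receptor of eosinophils, fell from 19.2 ± 13.7 to 2.33 ± 1.99 (−2.43, adjusted p = 0.0061), in Siah2 KO to a mean below that of the brightest negative controls. *Ccr2* and *Ccr7* were called lower with median scaling (−0.40 and −0.91), and *Ccr6* without WT replicate 5 (−1.25, adjusted p = 0.046).

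**Figure D4:**
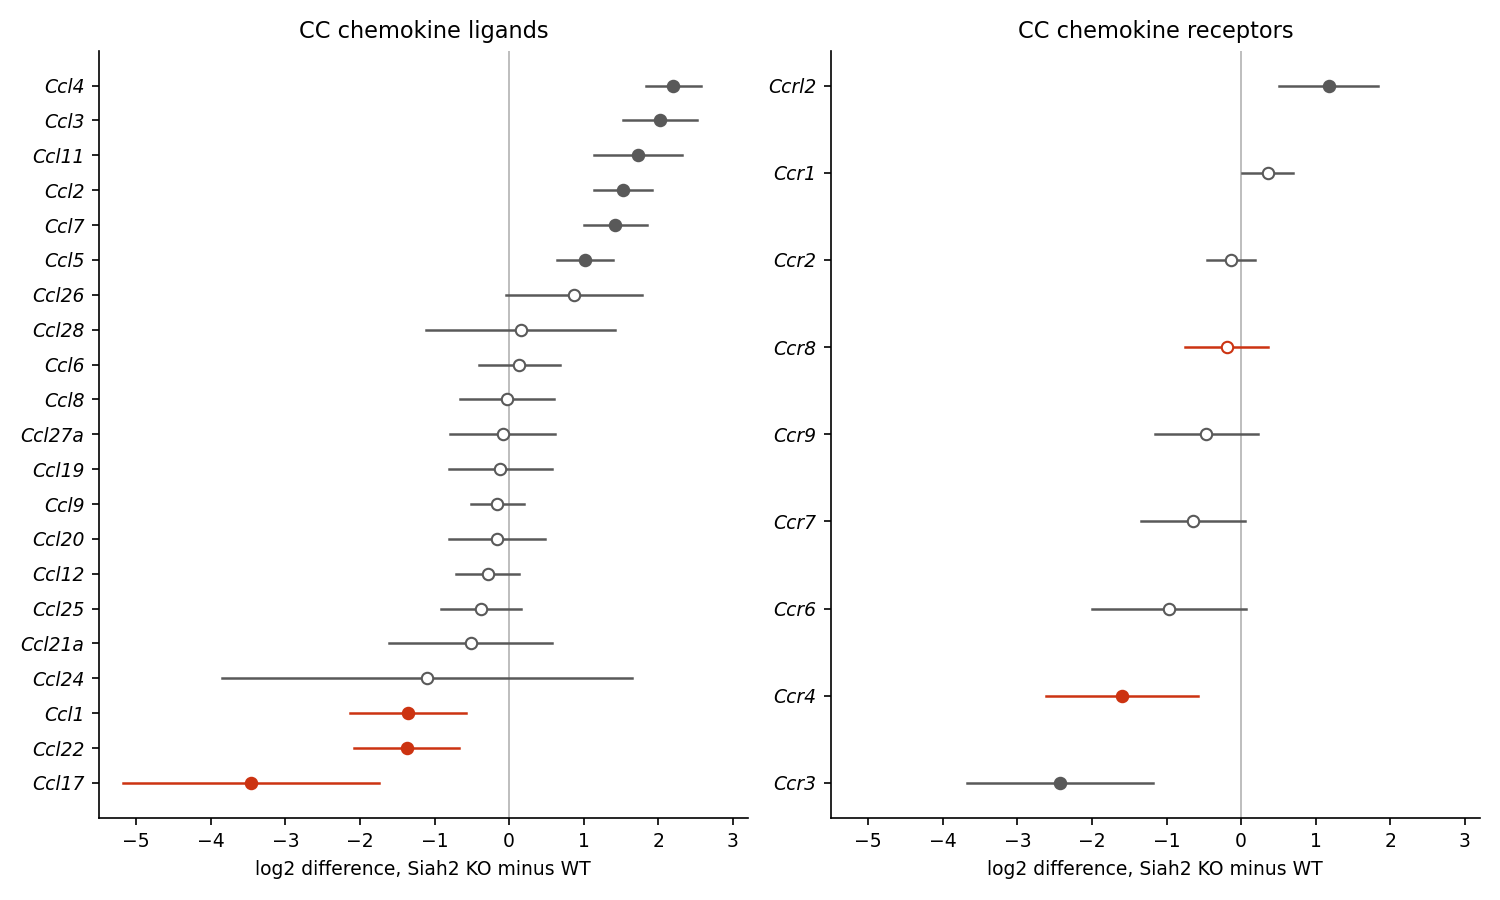
Log2 difference, Siah2 KO minus WT, of CC chemokine ligands and receptors of the panel, each with its 95% confidence interval, ordered by size. The 5 genes of the CCR4 and CCR8 axis are in red, and filled points have an adjusted p under 0.05. *Ccl17*, *Ccl22* and *Ccl1* are the lowest ligands, and *Ccr3* and *Ccr4* the lowest receptors.

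The gene whose values followed those of *Ccl22* most closely was *Ccr7*, the receptor with which mature dendritic cells and naive T cells home to lymph nodes. With group means subtracted, Pearson's r over the 10 tumors was 0.96 for *Ccr7*, 0.94 for *Sbno2* and 0.93 for *Vwf*. These were the highest of 599 genes with a mean of at least 20, the genes of the axis left out. For *Ccl17* the highest of the same 599 genes were *Osm* (0.94), *Cd200r1* (0.93) and *Ccr7* (0.92). These tumors share the panel and its scaling, and the correlations are a description. The 6 places held 5 genes, whose mean levels did not all move with the ligands. *Ccr7* had 189 ± 46.4 in WT and 127 ± 57.9 in Siah2 KO (−0.65, adjusted p = 0.12). *Vwf*, the von Willebrand factor of endothelium, fell from 43.4 ± 6.01 to 25.3 ± 7.93 (−0.79, adjusted p = 0.0095). *Osm*, a cytokine of the IL-6 family, had 32.2 ± 12.9 and 60.1 ± 29.8 (0.81, adjusted p = 0.092). *Cd200r1*, an inhibitory receptor of myeloid cells, had 101 ± 12.6 and 143 ± 38.4 (0.47, adjusted p = 0.056). *Sbno2* had 274 ± 30.9 and 305 ± 60.4 (0.14, adjusted p = 0.48). The log2 ratio of *Ccl22* to *Ccr7* was −0.28 to 0.066 in WT and −0.97 to −0.55 in Siah2 KO tumors, a comparison chosen after the values were seen and not tested. Its mean was lower by −0.73 in Siah2 KO, beside −1.37 for *Ccl22* itself. Of the Siah2 KO tumors, only replicates 3 and 5 had *Ccr7* inside the WT range of 122 to 236, at 182 and 196. Their *Ccl22*, at 98.5 and 106, lay below that of every WT tumor, such as WT replicate 2 with 170 of *Ccr7* and 140 of *Ccl22*. Every Siah2 KO tumor was below every WT tumor in *Ccl22*, so this order was set before *Ccr7* was considered. Siah2 KO replicates 1, 2 and 6 lay below the WT range of *Ccr7*, with no WT tumor at a like level. After the same subtraction *Ccr8* had an r of 0.73 with *Ccl22* and 0.60 with *Ccl17*, whereas r for *Ccr4* with each of the other 4 genes was between −0.34 and −0.099.

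**Figure D5:**
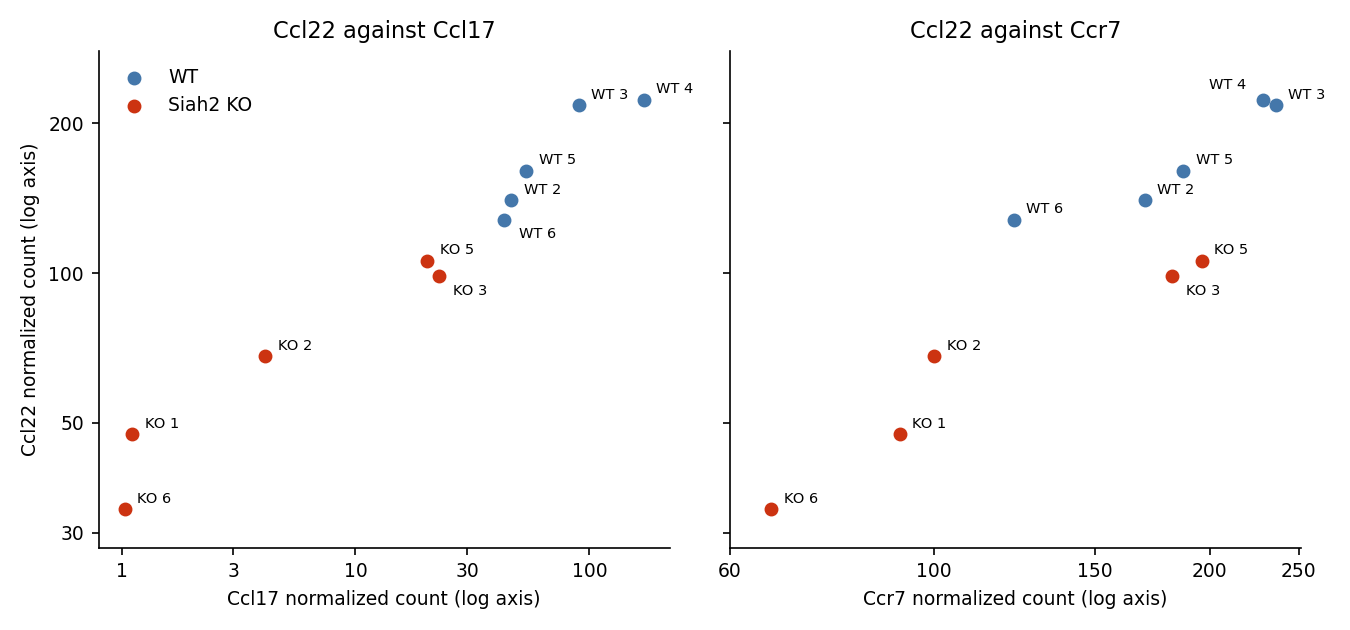
*Ccl22* against *Ccl17* (left) and against *Ccr7* (right), in normalized counts on log axes, with 1 point per tumor, WT in blue and Siah2 KO in red. Tumors high in *Ccl22* are high in *Ccl17*. Siah2 KO replicates 3 and 5, the only ones with *Ccr7* inside the WT range, lie below the WT tumors in *Ccl22*, as all Siah2 KO tumors do.

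Other cell types of the tumor moved with genotype beside these genes, and their part in the results was not tested. Of 6 leukocyte genes 5 were higher and 0 lower (median log2 difference 0.68, summed level 3925 to 4708 in WT and 5864 to 8801 in Siah2 KO), with *Itgb2* at 667 ± 133 and 1502 ± 371 and *Cd37* at 188 ± 30.5 and 189 ± 28.2. All 4 fibroblast genes were lower (median −0.87, summed level 16494 to 21344 in WT and 10332 to 12326 in Siah2 KO), from *Fap* (−1.97, adjusted p = 0.00018) to *Col1a1* (−0.41, adjusted p = 0.025). Of 5 endothelial genes, *Pecam1* was higher (0.88, adjusted p = 0.00039) and *Cdh5* lower (−0.45, adjusted p = 0.0052), with a median of −0.31 and sums of 660 to 764 and 659 to 753, 2 were lower without WT replicate 3, and 4 were lower with median scaling or quantile normalization. Of 3 keratinocyte and Langerhans cell genes, 1 was lower (median 0.59, sums of 37.8 to 78.1 and 24.8 to 62.0), *Cdh1* (−0.71, adjusted p = 0.035), which was not called without WT replicate 3, 4 or 5 or Siah2 KO replicate 1, 5 or 6. Of 3 melanoma genes 2 were lower (median −0.87, sums of 438 to 594 and 224 to 405), *S100b* and *Cspg4*, with *Mcam* at −0.17 (adjusted p = 0.36), and all 3 were lower with median scaling or quantile normalization. With positive control scaling, 2 of 6 leukocyte and 2 of 4 fibroblast genes were called.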

How the data were processed

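RNA of 5 WT and 5 Siah2 KO tumors was counted on the nCounter PanCancer Immune panel for mouse, with 750 endogenous, 20 reference, 6 positive and 8 negative control probes. The authors deposited a normalized signal per probe, obtained in nSolver by scaling each tumor on 20 reference genes (geometric mean). A background had been subtracted and a floor set of 1 count before scaling, steps absent from the written methods, so raw counts could not be recovered. Counting errors given are the least possible. Groups came from the labels.

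From these values, log2(value + 1) was fitted for 770 probes with limma 3.58.1 in R 4.3.3, Siah2 KO minus WT, with two-sided tests and Benjamini-Hochberg adjustment over all probes. Ratios to a list (its median log2 value per tumor) or to a gene were fitted for all probes in the same way. Taking 1 value off all probes gives them a shared error, so limma's SE and adjusted p for ratios may be too small. The exact permutation test ran over all 252 divisions of the tumors. The 5 genes and the 15 gene lists were chosen with earlier results of these data known. Genes named are the 5, each list's highest and lowest change with a mean of at least 20, list members at an adjusted p under 0.05, *Foxp3*, *Cx3cl1*, and the 3 genes most like *Ccl17* and *Ccl22*. List genes outside the rule (*Btla*, *Il4*, *Il13*, *Stat6*, *Jak1*, *Ccl8*, *Ccl9*, *Ccl12*, *Ccr2* and *Ccr6*) were named after their values were seen. Each tumor was left out in turn and 13 other alternatives were run, and the mean of a list in place of its median was added after seeing the data. They were median, quantile, positive control and stable reference gene scaling, dropping genes with a mean under 20, raising values under 20 to 20, a pseudocount of 10 or none, leaving out the reference probes, the methods' equal-variance test, limma's intensity trend, and the replicate number as a block or the same 8 tumors without it. Some items are not reported here. The scripts were tested on simulated data. Plots were made with matplotlib 3.10.9.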

Additional observations from a re-analysis of the deposited data

Results flagged for a closer look

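In Siah2 KO replicate 3, *Ccl1* stood apart from the other 4 Siah2 KO tumors. Its gap to the nearest of them was 0.7314 of the group's range, above Dixon's critical value of 0.71 for 5 samples. The log2 ratio of *Ccl17* to *Ccl22* stood apart in WT replicate 4, at −0.38 against −1.58 to −1.26 in the other WT tumors, with a gap of 0.7385 of the range. In WT replicate 3, the log2 ratio of *Ccr8* to the T cell list was −0.93 against −1.98 to −1.80 in the other WT tumors, a gap of 0.8278 of the range. In all, 26 groups of 5 values were examined in this way, and chance marks about 1 in 20.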

How the results depend on the processing

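The differences of *Ccl17*, *Ccl22*, *Ccr4* and *Ccr8* kept their direction and their side of the threshold under every alternative that gave a value, from −3.91 to −1.72 for *Ccl17*, −1.64 to −1.17 for *Ccl22*, −2.06 to −0.61 for *Ccr4* and −0.44 to −0.047 for *Ccr8*, and with each tumor left out from −3.93 to −3.05, −1.55 to −1.14, −1.95 to −1.36 and −0.34 to −0.016. *Ccl1* ranged from −1.61 to −1.04, and from −1.68 to −1.21 with a tumor left out. *Ccr4* and *Ccr8* have no value with the filter at a mean of 20, and *Ccr4* none with the floor of 20, since all its values lie under it. Positive control scaling gave 95 genes called over the panel in place of 316, 60 higher and 35 lower, quantile normalization 153 higher and 181 lower, and leaving out a tumor 268 to 334. The floor of 20 ended the call of *Ccl17* relative to *Ccl22* (−0.34, adjusted p = 0.32). *Ccr8* relative to *Foxp3* passed the test with that floor (0.87), with a pseudocount of 10 (0.63) and with the methods' test (0.72), and was 0.58 to 0.91 with a tumor left out. The methods' test did not call *Ccl22* relative to the dendritic cell lineage list (−0.95) or *Ccr4* relative to the T cell list (−1.71), and with a tumor left out *Ccl22* relative to the lineage list was −1.17 to −0.75. With the mean of the list *Ccr8* relative to the T cell list was called (−0.85, adjusted p = 0.011). The causes of these changes were not tested.

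With the replicate number as a block, in 8 tumors, *Ccl1* was no longer called (−1.48, adjusted p = 0.051), nor was *Ccl22* relative to the lineage list (−0.71, adjusted p = 0.23), which was also not called in these 8 tumors without the block (−0.71, adjusted p = 0.12). The block called 235 genes, 190 higher and 45 lower, and changed the call of no other gene of the axis and of no other ratio. Tumors with the same number had deviations from their group means that correlated at 0.10, 0.084, 0.16 and 0.34. They are not known to be paired, although each of the 8 correlated best with its own number. Depth limits *Ccr4*, *Ccr8* and the low values of *Ccl17* and *Ccl1* most.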
